A study of Sus scrofa with 20 samples.

Results

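The inner root sheath genes KRT71, KRT73, KRT25, TCHHL1 and VSIG8 were followed through 4 pig skin sites. They were picked by symbol and are 5 of the 19280 gene identifiers in the deposited table (Ensembl ENSSSCG00000000247, ENSSSCG00000000250, ENSSSCG00000017464, ENSSSCG00000006609 and ENSSSCG00000006399 in that order). All 5 passed the filter on low counts in both sets of libraries described next. The study set the volar foot (the sole), the snout and the dorsal foot beside the flank, by RNA sequencing of 4 mm skin punches from 5 wild-type female Yorkshire pigs. No agent was given and no allele was altered, and the groups share breed, sex and genotype. The libraries carry numbers from 2 separate ranges. The first set holds volar, snout, dorsal and flank libraries of the pigs aged 4, 7 and 8 months (12 libraries), and the second set holds the same 4 labels for the pigs aged 5 and 6 months (8 libraries).

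The inner root sheath is the layered sleeve that encloses the growing hair below the opening of the sebaceous gland. Its cells arise in the hair matrix, fill with type I and type II keratins and with trichohyalin, harden before the hair shaft does, and are shed in the upper canal. It exists only in follicles that are growing a hair, so in a punch of whole skin its RNA depends on how many such follicles the punch holds, and fewer follicle cells cannot be told apart from less RNA per cell. KRT71 and KRT73 encode type II keratins and KRT25 a type I keratin of the sheath, and type I and type II keratins pair to build filaments. TCHHL1 is a fused S100-type gene beside trichohyalin. VSIG8 encodes an immunoglobulin-domain membrane protein found in the hair follicle.

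The site names of the second set stood on libraries that resembled other sites. With keratins, keratin-associated proteins and all hair lists left out, each of the 8 libraries was closest to another site of the first set over the 2000 most variable genes. The libraries labelled flank were closest to volar (r 0.861 and 0.870 for the pigs aged 6 and 5 months), those labelled volar to snout (0.817 and 0.765), those labelled dorsal to flank (0.797 and 0.836) and those labelled snout to dorsal (0.843 and 0.800). The haired sites were the least separate from each other. For the pigs aged 6 and 5 months the next site had r 0.724 and 0.616 for dorsal-labelled libraries and 0.616 and 0.670 for snout-labelled ones, and at most 0.0060 for the other labels. Tests therefore stayed within each set and under the deposited labels, and the matched sites serve as a description only. Levels are given as CPM, the counts set against library size after scaling by the trimmed mean of M values (TMM). Totals ran from 34077821 to 66906420 counts per library. Levels are compared between samples for 1 gene, never between genes, since gene lengths were not used.

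In the first set the members were nearly absent from the sole, intermediate in the snout, and high in dorsal foot and flank skin. KRT71 had 0.0253, 0.154 and 0.0776 CPM in volar skin of the 4-, 7- and 8-month pigs. In the snout it had 114, 326 and 353 CPM, and in dorsal skin 2045, 2006 and 4946 CPM. In flank skin it had 193, 2427 and 1199 CPM. The volar libraries held 1, 6 and 4 KRT71 counts, and no library of another site came within their range. The 4-month flank was the low one of its group and fell inside the snout range.

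KRT25 had 7.90, 5.56 and 1.20 CPM in volar skin of the 4-, 7- and 8-month pigs. It had 105, 314 and 358 CPM in the snout, and 1994, 2288 and 5396 CPM in dorsal skin. In flank skin it had 127, 2587 and 1333 CPM. KRT25 was thus the member with a measurable residue in the sole, where 312, 216 and 62 counts were assigned to it. The 4-month flank again lay within the snout range.

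KRT73 had no count in any of the 3 volar libraries, where the limit that 3 counts over the group allow is 0.0231 CPM. It had 1.99, 2.78 and 7.08 CPM in the snout, 28.7, 23.9 and 95.7 CPM in dorsal skin and 0.278, 32.0 and 20.3 CPM in flank skin. The 4-month flank was below every snout library for this gene.

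TCHHL1 also had no count in volar skin. It had 1.13, 8.16 and 5.11 CPM in the snout, and 57.7, 31.1 and 124 CPM in dorsal skin. In flank skin it had 8.50, 124 and 39.7 CPM, so that the 4-month flank stood just above the highest snout library.

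VSIG8 had 0.0253, 0.0257 and 0.0388 CPM in volar skin, from 1, 1 and 2 counts. It had 34.3, 60.9 and 53.8 CPM in the snout, 209, 127 and 467 CPM in dorsal skin and 11.5, 188 and 109 CPM in flank skin. Its snout and flank ranges overlapped, because the 4-month flank was under all 3 snout libraries.

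**Figure D1:**
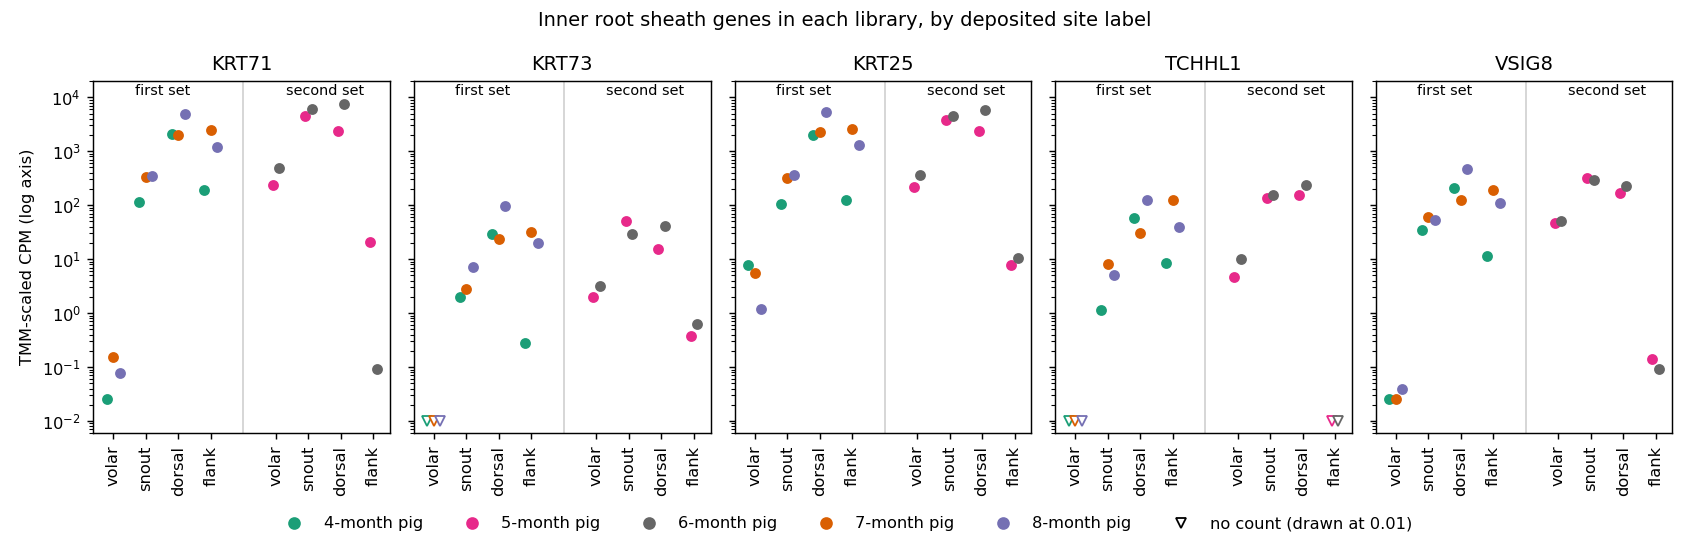
TMM-scaled CPM (log axis) of each member in each of the 20 libraries, by deposited site label and set, with 1 point per library coloured by pig and open triangles for libraries without a count. In the first set the volar libraries are lowest for all 5 genes, and in the second set the libraries labelled flank are.

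Volar against flank skin in the first set, the comparison of the hairless sole with trunk skin, gave lower levels for 5 of 5 members by edgeR's quasi-likelihood test, where 16.0% of the 15302 genes tested were lower. KRT71 averaged 0.0858 ± 0.0649 CPM in volar and 1273 ± 1119 CPM in flank skin (SD, n = 3 each), a log2 fold change of -13.84 ± 1.31 (SE, adjusted p 6.3e-05). VSIG8 averaged 0.0299 ± 0.0077 CPM in volar and 103 ± 88.4 CPM in flank skin, with -11.61 ± 1.34 (adjusted p 0.00017). KRT25 averaged 4.89 ± 3.40 CPM in volar and 1349 ± 1230 CPM in flank skin, and its difference was the smallest at -8.11 ± 1.25 (adjusted p 0.00088). TCHHL1 was at least 2491-fold lower and KRT73 at least 759-fold lower in volar skin, both against 3 counts over the group (adjusted p 0.0017 and 0.0072). By limma-voom the calls of KRT73 (adjusted p 0.137) and VSIG8 (0.0638) were lost. With KRT73 and TCHHL1 at their bounds, the members' median log2 fold change was -11.28, against -0.05 over all genes tested.

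Volar against dorsal foot skin compared both faces of the foot, and again 5 of 5 members were lower, where 10.1% of all genes tested were. These were the widest separations in the first set. KRT71 differed by -15.07 ± 1.35 (adjusted p 7.1e-05), with a mean of 2999 ± 1686 CPM in dorsal skin (SD, n = 3). VSIG8 differed by -12.99 ± 1.37 (adjusted p 0.00016) and KRT25 by -9.37 ± 1.31 (adjusted p 0.00075). TCHHL1 was at least 3068-fold and KRT73 at least 2140-fold lower in volar skin (adjusted p 0.0020 and 0.0054). By limma-voom KRT73 missed the threshold (adjusted p 0.0780) and 4 of 5 members passed. No removal of a single library ended any of the edgeR calls of volar against dorsal or flank skin.

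Volar against snout skin compared a pair of sites with little or no fur, and 5 of 5 members were lower in volar skin, where 5.85% of all genes tested were. KRT71 averaged 264 ± 131 CPM in the snout and differed by -11.57 ± 1.24 (adjusted p 0.00040), VSIG8 by -10.56 ± 1.32 (adjusted p 0.00098) and KRT25 by -5.74 ± 1.13 (adjusted p 0.0094). TCHHL1 was at least 208-fold and KRT73 at least 171-fold lower in volar skin (adjusted p 0.023 and 0.046). By limma-voom 2 of 5 passed, and KRT73 (adjusted p 0.300), TCHHL1 (0.245) and VSIG8 (0.138) did not. The KRT73 call was also lost with no filter on low counts (adjusted p 0.0606). The KRT73 call ended in 9 of the 12 fits that left out 1 library (adjusted p up to 0.114), and held without the 4-month flank, the 7-month flank and the 8-month dorsal library. The TCHHL1 call ended in 4 of them, without each volar library (adjusted p 0.0550 to 0.0692) or without the 7-month snout (0.0589).

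Snout against dorsal foot skin gave lower levels for 1 of 5 members, KRT71, where 2.92% of all genes tested were lower. KRT71 differed by -3.50 ± 0.81 (adjusted p 0.026). The other log2 fold changes were also negative but missed the threshold, at -3.65 ± 1.28 for KRT73 (adjusted p 0.13), -3.64 ± 1.01 for KRT25 (0.054), -3.88 ± 1.07 for TCHHL1 (0.064) and -2.43 ± 0.78 for VSIG8 (0.086). Every snout library was below every dorsal library for all 5 genes. With the pig as a block KRT71 had -3.71 ± 0.58 (adjusted p 0.0060) and TCHHL1 passed too, at -4.50 ± 0.93 (0.030). The KRT71 call ended without any 1 of the 3 snout or 3 dorsal libraries (adjusted p 0.0506 to 0.0810). Without the 4-month flank 5 of 5 passed, among them VSIG8 (adjusted p 0.0092), KRT25 (0.0151), KRT73 (0.0195) and TCHHL1 (0.0309). In that fit 535 of 15492 genes tested were lower, against 447 of 15302 with all libraries. The flank is in neither group of this comparison, so its removal acts only through the filter, scaling and spread estimate shared by the fit.

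Snout against flank skin gave 0 of 5 calls by edgeR, where 5.46% of all genes tested were lower in the snout. The unadjusted p was under 0.05 for 3 members, DESeq2 called 3 and limma-voom 0. KRT71 differed by -2.27 ± 0.77 (adjusted p 0.082), KRT25 by -2.38 ± 0.96 (0.13), TCHHL1 by -3.58 ± 1.06 (0.059), KRT73 by -2.15 ± 1.21 (0.29) and VSIG8 by -1.05 ± 0.75 (0.40). The pig as a block brought 2 calls, KRT71 at -1.99 ± 0.55 (adjusted p 0.040) and TCHHL1 at -3.39 ± 0.87 (0.042). Without the 4-month flank 4 passed, KRT71 (-2.78, adjusted p 0.0144), KRT73 (-2.73, 0.0490), KRT25 (-2.92, 0.0364) and TCHHL1 (-4.09, 0.0272). In that fit 756 of 15492 genes tested were lower in the snout.

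Dorsal foot against flank skin, a pair of haired sites, gave 0 of 5 calls, where 0.131% of all genes tested passed in either direction. The log2 fold changes were 1.24 ± 0.75 for KRT71, 1.49 ± 1.17 for KRT73, 1.26 ± 0.93 for KRT25, 0.30 ± 0.95 for TCHHL1 and 1.38 ± 0.75 for VSIG8 (adjusted p 0.66 to 0.99). None had an unadjusted p under 0.05, DESeq2 and limma-voom called none, and all 5 ranges overlapped. In order of level, volar skin was therefore below the snout for every member. The snout was below both haired sites in mean, and dorsal foot and flank were not told apart.

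**Figure D2:**
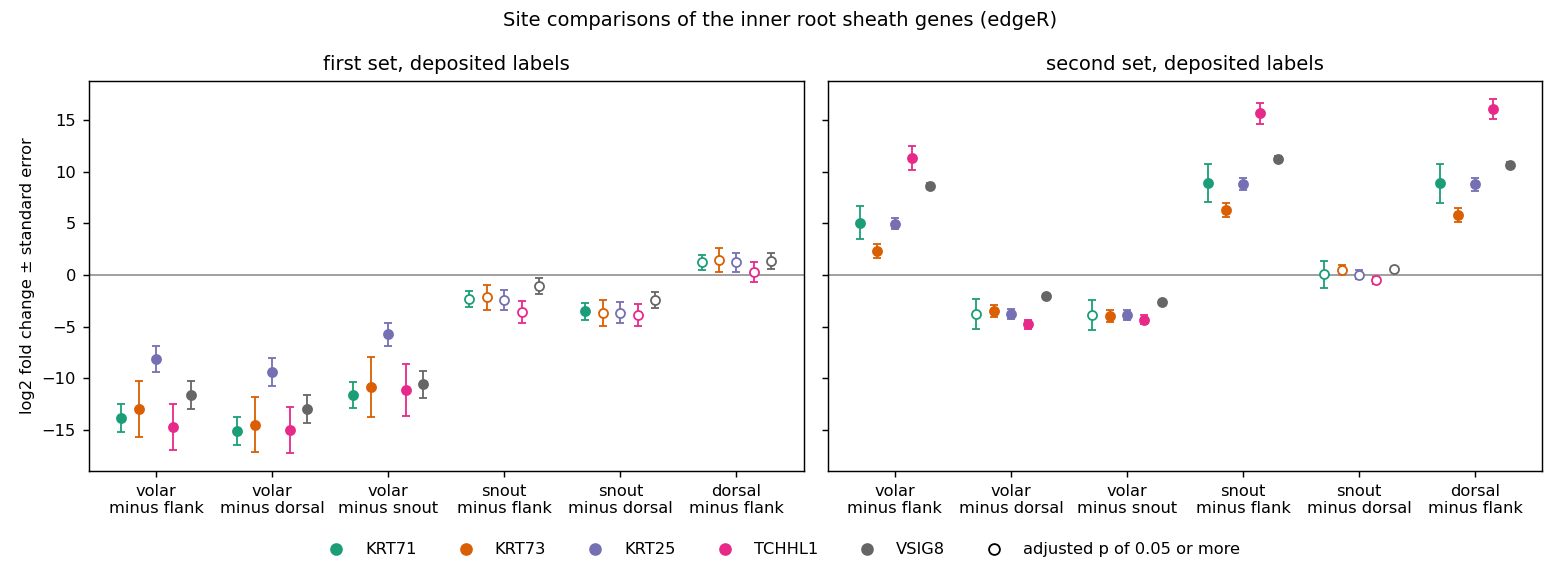
Log2 fold change ± standard error (back-calculated from the F test) of each member in the 6 site comparisons. Fits were within the first set (left) and the second set (right) under deposited labels, with filled points past an adjusted p of 0.05. The points for KRT73 and TCHHL1 against first-set volar and for TCHHL1 against second-set flank rest on a group without a count, so their size is not a measured fold. The 3 volar comparisons lie lowest on the left, and the 3 comparisons with flank lie highest on the right.

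In the second set the same genes were again nearly absent from 1 group, but that group carried the label flank. KRT71 had 233 and 488 CPM in the volar-labelled libraries, 4473 and 6006 CPM in the snout-labelled and 2386 and 7579 CPM in the dorsal-labelled ones (5- and 6-month pig in each pair). The flank-labelled libraries had 21.1 and 0.0917 CPM, from 603 and 2 counts. KRT25 had 217 and 364 CPM in volar-labelled, 3776 and 4529 CPM in snout-labelled, 2345 and 5721 CPM in dorsal-labelled and 7.86 and 10.5 CPM in flank-labelled libraries. No library of another label came within the flank-labelled range for either keratin.

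KRT73 had 1.97 and 3.19 CPM in volar-labelled, 50.3 and 29.2 CPM in snout-labelled, 15.7 and 40.9 CPM in dorsal-labelled and 0.384 and 0.642 CPM in flank-labelled libraries. TCHHL1 had 4.57 and 9.98 CPM in volar-labelled, 133 and 154 CPM in snout-labelled and 156 and 233 CPM in dorsal-labelled libraries, and no count in either flank-labelled library. VSIG8 had 47.1 and 50.9 CPM in volar-labelled, 315 and 290 CPM in snout-labelled, 167 and 223 CPM in dorsal-labelled and 0.140 and 0.0917 CPM in flank-labelled libraries. The order was flank-labelled, volar-labelled, then both other labels for each of the 3 genes, with snout-labelled and dorsal-labelled ranges overlapping for KRT73.

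Under these labels volar (matched to snout) was higher than flank (matched to sole) for 5 of 5 members, where 20.9% of the 15280 genes tested were higher. VSIG8 differed by 8.66 ± 0.28 (adjusted p 3.3e-05), KRT25 by 4.99 ± 0.52 (0.00077), KRT71 by 5.07 ± 1.56 (0.040) and KRT73 by 2.34 ± 0.66 (0.029), and TCHHL1 was at least 122-fold higher (0.0013). The KRT71 call was lost with the pig as a block, at 4.98 ± 1.70 (adjusted p 0.058), and in 4 of 8 fits without 1 library, namely either volar-labelled or either snout-labelled one (adjusted p 0.0614 to 0.114). It was lost as well with the 2 sites only (adjusted p 0.163). Without the flank-labelled library of the 5-month pig the KRT71 difference was 11.91, against 2 counts in the lone library left. The KRT73 call was lost without either flank-labelled or either volar-labelled library (adjusted p 0.0517 to 0.148), and by limma-voom (0.221), which called the other 4 members.

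Snout-labelled libraries (matched to dorsal foot) were higher than flank-labelled ones (matched to sole) for 5 of 5 members, where 22.6% of all genes tested were. Dorsal-labelled libraries (matched to flank) were higher than flank-labelled ones for 5 of 5, where 25.3% of all genes tested were. For snout against flank KRT71 differed by 8.93 ± 1.85 (adjusted p 0.0082), KRT73 by 6.30 ± 0.67 (0.00060), KRT25 by 8.82 ± 0.61 (0.00016) and VSIG8 by 11.28 ± 0.29 (1.8e-05). For dorsal against flank KRT71 differed by 8.87 ± 1.85 (adjusted p 0.0075), KRT73 by 5.82 ± 0.66 (0.00063), KRT25 by 8.79 ± 0.61 (0.00013) and VSIG8 by 10.66 ± 0.29 (2.0e-05). TCHHL1 was at least 2413-fold higher in snout-labelled and at least 3274-fold higher in dorsal-labelled than in flank-labelled libraries. Without the flank-labelled library of the 5-month pig the KRT71 difference was 15.76 for snout and 15.70 for dorsal against flank, since the lone library left has 2 counts.

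Volar-labelled libraries (matched to snout) were lower than dorsal-labelled ones (matched to flank) for 4 of 5 members, where 5.35% of all genes tested were lower. They were lower than snout-labelled ones (matched to dorsal foot) for 4 of 5, where 3.66% of all genes tested were. By edgeR the exception was KRT71, at -3.80 ± 1.46 against dorsal (adjusted p 0.14) and -3.85 ± 1.46 against snout (0.16). It passed in both comparisons once either flank-labelled library was left out (adjusted p 0.0202 to 0.0226). It also passed by limma-voom (adjusted p 0.0249 against dorsal and 0.0219 against snout) and with the 2 sites only (0.0333 and 0.00882). TCHHL1 had the largest of these differences, -4.76 ± 0.44 against dorsal (adjusted p 0.0023) and -4.31 ± 0.43 against snout (0.0036). VSIG8 had the smallest, -2.00 ± 0.17 against dorsal (adjusted p 0.00083) and -2.62 ± 0.17 against snout (0.00036). KRT25 had -3.80 ± 0.48 (adjusted p 0.0043) and -3.83 ± 0.48 (0.0048), and KRT73 -3.47 ± 0.54 (0.0087) and -3.95 ± 0.55 (0.0070). The KRT73 calls were lost against dorsal without either volar-labelled library (adjusted p 0.0529 and 0.0712) and against snout without that of the 5-month pig (0.0630).

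Snout-labelled against dorsal-labelled libraries, matched to dorsal foot and flank, gave 0 of 5 calls, where 0.0393% of all genes tested passed in either direction. One member, VSIG8 at 0.62 ± 0.16, had an unadjusted p under 0.05, its adjusted p was 0.38, and DESeq2 and limma-voom called 0. KRT71 differed by 0.06 ± 1.31 and KRT25 by 0.03 ± 0.43 (adjusted p 1 for both). A test for any difference among the 4 labels, which needs no site name to be right but only the grouping, called 5 of 5 members in each set (adjusted p 0.00014 to 0.013 in the first, where 30.4% of all genes tested passed, and 1.9e-05 to 0.020 in the second, where 44.5% did). The joint test of the site by set interaction called 5 of 5 members, where 49.3% of 15735 genes tested passed. In the second set the KRT71 call missed the threshold without the volar-labelled library of the 5-month pig (adjusted p 0.0530).

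Described by matched site over 5 pigs, with no test, TCHHL1 had no count in any of 5 sole libraries, 1.13 to 9.98 CPM in snout, 31.1 to 154 CPM in dorsal foot and 8.50 to 233 CPM in flank libraries. VSIG8 had 0.0253 to 0.140 CPM in sole, 34.3 to 60.9 CPM in snout, 127 to 467 CPM in dorsal foot and 11.5 to 223 CPM in flank libraries. KRT71 ran from 0.0253 to 21.1 CPM (median 0.0917) in sole and from 114 to 488 CPM (median 326) in snout. It ran from 2006 to 6006 CPM (median 4473) in dorsal foot and from 193 to 7579 CPM (median 2386) in flank. KRT25 ran from 1.20 to 10.5 CPM in sole, from 105 to 364 CPM in snout, from 1994 to 5396 CPM in dorsal foot and from 127 to 5721 CPM in flank. KRT73 ran from 0 to 0.642 CPM in sole, from 1.97 to 7.08 CPM in snout, from 23.9 to 95.7 CPM in dorsal foot and from 0.278 to 40.9 CPM in flank. The sole and snout ranges did not overlap for any of the 5 genes, and every flank range had the 4-month pig at its low end. For KRT73 alone the flank range reached down into the sole range.

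The libraries low in the members kept a trace whose makeup differed from that of haired skin. Summed over the 3 first-set volar libraries, KRT25 had 590 counts in all and KRT71 11, whereas in dorsal skin KRT25 had 571620 and KRT71 531238. KRT27, another type I keratin of the sheath, likewise kept 2.26 ± 1.16 CPM in volar skin (SD, n = 3). In the same libraries KRT10, the type I keratin of the upper epidermis, was at 54998, 52182 and 57628 CPM in volar and at 2348, 2446 and 2325 CPM in flank skin. KRT25, KRT26, KRT27 and KRT28 sit side by side with KRT10 at 1 end of the row on chromosome 12 in the RefSeq annotation of assembly Sscrofa11.1. Of these, KRT26 had no count in first-set volar skin and KRT28 had 1, against 2026 and 4953 in dorsal skin. The type II sheath keratins KRT74 and KRT72 kept 59 and 31 volar counts, against 138964 and 10526 in dorsal skin. Whether reads of related keratins were divided between genes was not tested.

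In the flank-labelled libraries of the second set KRT25 had 225 and 229 counts in the 5- and 6-month pig, while KRT71 had 603 and 2. The library with 603 KRT71 counts had no TCHHL1 count, 11 KRT73 counts and 4 VSIG8 counts. It was also the one with 170 CPM of KRT36 and 80.2 CPM of KRT84, against 1.15 and 4.31 CPM in the flank-labelled library of the 6-month pig. KRT36 and KRT84 encode keratins of hair shaft, nail and tongue-type hard epithelia, and were picked out after their values were seen.

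Within libraries that hold the sheath, the members' proportions could be set against KRT71, which needs no scaling between libraries. In the 15 libraries with 1000 or more KRT71 counts, KRT25 ran from 658 to 1141 counts per 1000 KRT71 counts. The lowest was the 4-month flank, and without it the range was 747 to 1141. The 6-month pig had 747 to 755 in its 3 libraries, below the 844 to 983 of the 5-month pig, so that library and animal moved together within that set.

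VSIG8 per 1000 KRT71 counts was 301, 187 and 153 in the first-set snout of the 4-, 7- and 8-month pigs, 102, 63.4 and 94.5 in dorsal skin and 59.4, 77.4 and 90.6 in flank skin. The snout values lay above all the others of that set. In the second set it was 202 and 104 in volar-labelled, 70.4 and 48.3 in snout-labelled and 70.0 and 29.4 in dorsal-labelled libraries of the 5- and 6-month pigs. KRT27 showed the same order, with 446 to 509 in first-set snout, 338 to 395 in dorsal and 362 to 386 in flank skin. TCHHL1 went the other way, at 9.90, 25.0 and 14.5 in snout, 28.2, 15.5 and 25.0 in dorsal and 44.1, 51.2 and 33.1 in flank skin of the first set. Flank skin was above the other 2 sites for TCHHL1, while snout and dorsal overlapped. These proportions were not tested, and the members' KRT71 share depends on KRT71 itself.

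**Figure D3:**
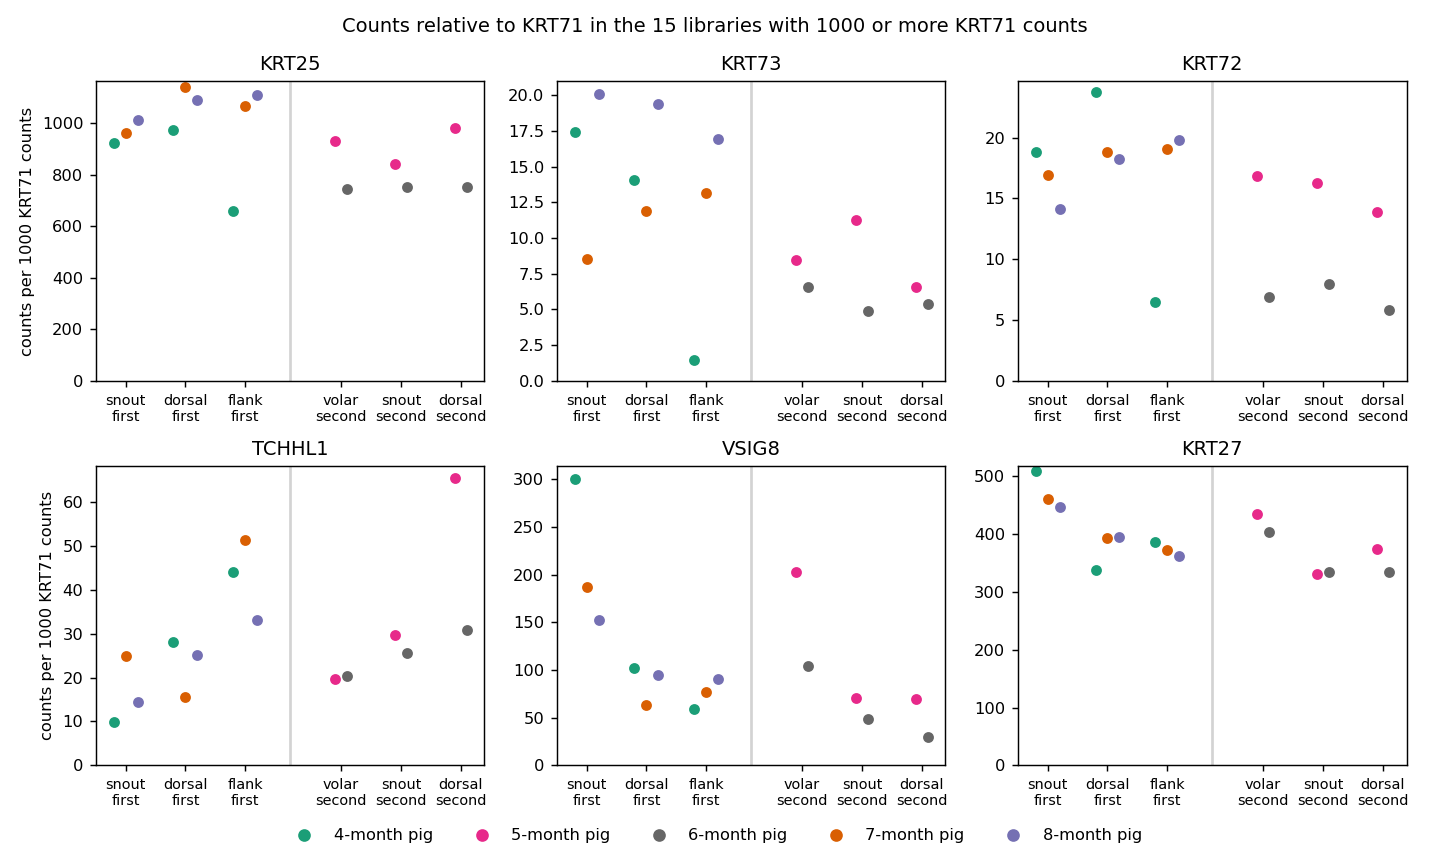
Counts of 6 inner root sheath genes per 1000 KRT71 counts (linear axes from 0) in the 15 libraries with at least 1000 KRT71 counts, by deposited label and set, 1 point per library coloured by pig. VSIG8 and KRT27 are highest in first-set snout, and the 4-month flank is the lowest point for KRT25 and KRT73 and among the lowest 3 for KRT72.

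The 4-month flank stood apart in the proportions as well as in level. Of 23 sheath, companion layer and shaft genes set against KRT71 it was the lowest of 15 libraries for 8, the highest for 6 and within the range of the others for 9. Its KRT73 was 1.44 per 1000 KRT71 counts, against 4.86 to 20.1 in the other 14 libraries, and KRT28, a type I sheath keratin, was 0.480 against 5.93 to 11.6. KRT82, a cuticle keratin, was 7.44 against 16.7 to 51.3, and S100A3, a calcium-binding protein of the hair cuticle, 13.8 against 44.7 to 122. It was the highest for the hair shaft genes KRT39, at 60.3 against 7.11 to 18.5, KRTAP27-1, at 30.4 against 6.77 to 19.5 and KRT85, at 302 against 85.8 to 263, and for KRT35, where the others reached 70.0. LIPH, a lipase needed for hair growth in humans, was 114 there against 1.75 to 19.1, though its level ran only from 8.05 to 21.9 CPM in first-set flank skin. The KRT71 count that these ratios divide by was 161863 and 77739 in the 7- and 8-month flank and 8331 in the 4-month flank. TCHHL1, at 44.1, and VSIG8, at 59.4, were within the range of the other libraries. GATA3, a transcription factor needed for the sheath in mice, had its highest level of all 20 libraries there, 144 CPM, and was 747 per 1000 KRT71 counts against 8.85 to 68.3. KRT72 was 6.48 in it, against 19.1 and 19.8 in the other flank libraries of the first set, and was as low, 5.86 to 7.99, in the 3 libraries of the 6-month pig.

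Of 12 other genes known from the sheath 10 were matched and tested, and trichohyalin (TCHH) and LPAR6 were not matched by symbol. In first-set volar against flank skin 8 of 10 were lower and 1 higher, where 16.0% and 16.9% of all genes tested were. The median log2 fold change was -6.73 against -0.05 over all genes. The type II keratin KRT74 differed by -9.57 ± 1.26 (adjusted p 0.00036), KRT27 by -7.71 ± 1.03 (0.00040), KRT72 by -6.64 ± 1.17 (0.0019) and PADI3, an enzyme that turns arginine of trichohyalin into citrulline, by -6.83 ± 1.28 (0.0026). KRT26 had no count in volar skin and was at least 195-fold lower. GATA3 differed by -2.67 ± 0.41 (adjusted p 0.00076) and LIPH by -1.99 ± 0.50 (0.012).

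TGM3, the transglutaminase that cross-links sheath proteins and also those of the epidermis, went against the list. It averaged 1792 ± 403 CPM in volar and 342 ± 85.7 CPM in flank skin (SD, n = 3 each), with a log2 fold change of 2.39 ± 0.24 (adjusted p 7.6e-05). It was also higher in the snout than in flank skin, by 1.58 ± 0.23 (adjusted p 0.0018). PADI1, a related arginine deiminase of epidermis and follicle, had 443, 399 and 735 CPM in the snout and 4.35, 18.0 and 7.37 CPM in flank skin of the 4-, 7- and 8-month pigs, a difference of 5.73 ± 0.76 (adjusted p 0.0011). PADI1 and TGM3 were the 2 list genes higher in the snout than in dorsal skin, by 4.79 ± 0.72 (adjusted p 0.0032) and 1.43 ± 0.23 (0.0045). Of all 15302 genes tested 765 were higher there.

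In snout against flank skin 2 of 10 were lower, where 5.46% of all genes tested were. These were GATA3 at -3.43 ± 0.42 (adjusted p 0.00060) and LIPH at -2.02 ± 0.50 (0.024). GATA3 was at 7.79 to 8.87 CPM in the snout and 62.9 to 144 CPM in flank skin, a narrower spread than any member's. Against dorsal skin 4 of 10 were lower in the snout, GATA3, KRT72, KRT27 and KRT74, where 2.92% of all genes tested were. The list median was -3.25 against 0.02 over all genes. In dorsal against flank skin 0 of 10 passed, where 0.131% of all genes tested did. In the second set 7 of 10 were higher in volar-labelled than flank-labelled libraries, where 20.9% of all genes tested were. Another 2 were lower, TGM3 by -1.99 ± 0.15 (adjusted p 0.00029) and GATA3 by -1.01 ± 0.26 (0.020), where 2686 of 15280 genes tested were.

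**Figure D4:**
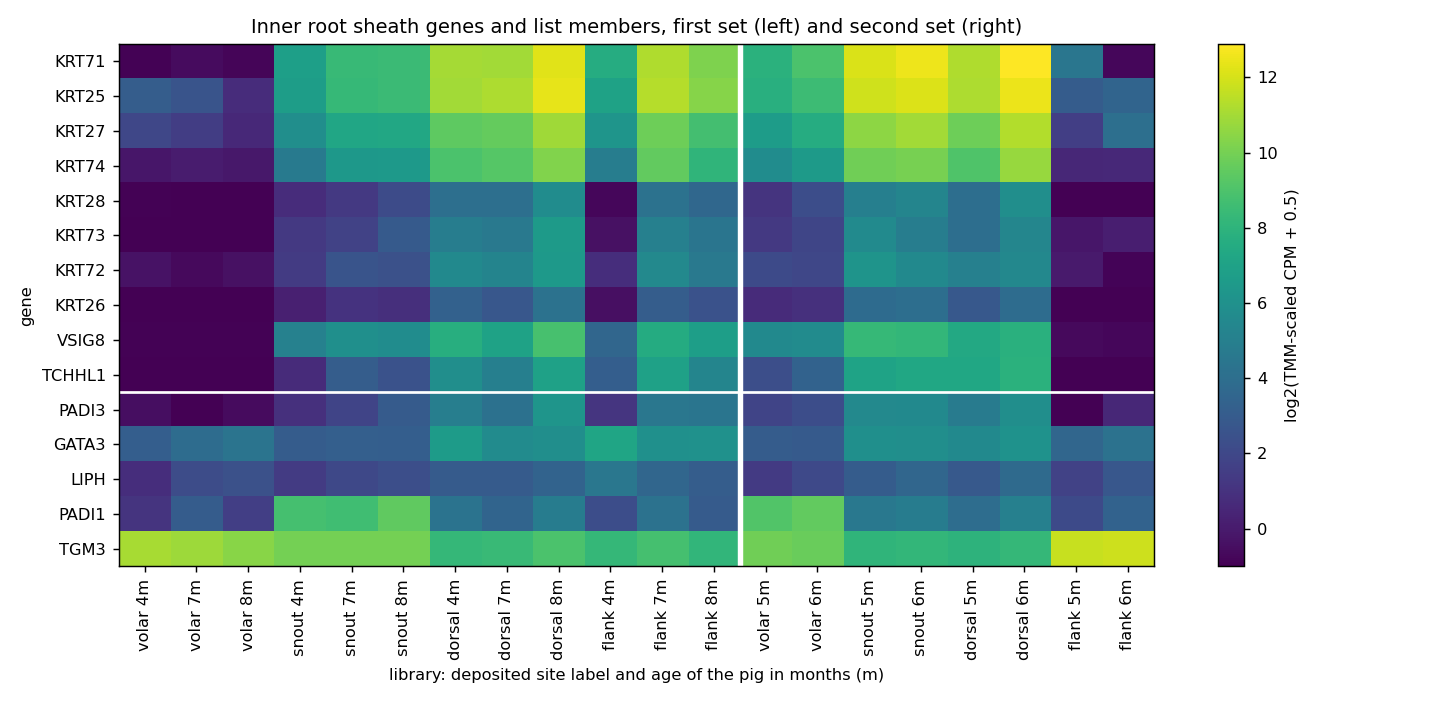
Log2(TMM-scaled CPM + 0.5) of the 5 members and 10 other sheath genes (rows) in the 20 libraries (columns, deposited label and age in months), with the first set left and the second right of the vertical line. The 10 genes above the horizontal line share the low columns, volar in the first set and flank in the second, while TGM3 is highest in those same columns and PADI1 in first-set snout and second-set volar.

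Hair shaft genes, which belong to the hair itself rather than to its sheath, ran beside the members in the first set and for the most part in the second. Of 24 listed 12 were matched, and 10 were lower in first-set volar than flank skin, 9 lower than in the snout and 12 lower than in dorsal skin. Of all genes tested 16.0%, 5.85% and 10.1% were lower in these 3 comparisons. The list median against flank was -9.63 once genes without a volar count were set at their bounds. In the snout 7 of 12 were lower than in dorsal skin and 2 of 12 lower than in flank skin, where 2.92% and 5.46% of all genes tested were. The hair keratin KRT85 was at 21.7 to 85.7 CPM in the snout and 283 to 798 CPM in dorsal skin. In the second set 10 of 12 shaft genes were higher and 1, KRT84, lower in volar-labelled than flank-labelled libraries. Of all 15280 genes tested 3198 were higher and 2686 lower. The list's sums overlapped, at 126 to 182 CPM in volar-labelled and 8.89 to 256 CPM in flank-labelled libraries. Of 12 genes on the companion and outer root sheath list 7 were matched, and KRT5, KRT14 and other keratins on it were not. Of the 7 matched, 5 were lower and 0 higher in first-set volar than flank skin, at a median of -1.82. Of all genes tested 16.0% were lower and 16.9% higher. LGR5, a marker of follicle stem cells, had no volar count in the first set, and KRT15, a basal and outer sheath keratin, was at 3.64 to 14.0 CPM in volar and 241 to 380 CPM in flank skin.

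Regulators of the hair matrix moved in both directions. Of 13 tested 3 were lower and 4 higher in first-set volar than flank skin, where 16.0% and 16.9% of all genes tested were, with a median of -0.31 against -0.05 over all genes. Against dorsal skin 7 were lower and 2 higher in volar skin, where 10.1% and 14.0% of all genes tested were, with a median of -0.75 against -0.01. TRPS1, a transcription factor mutated in a human syndrome with sparse hair, was at 93.9 to 105 CPM in volar and 10.1 to 15.6 CPM in flank skin. HOXC13, which drives hair keratin genes in mice and humans, was at 0.938 to 1.51 CPM in the snout and 2.34 to 10.7 CPM in flank skin. It was lower in first-set volar than dorsal skin but was not called in volar against flank skin. In the second set it was lower in volar-labelled than flank-labelled libraries, and higher in snout-labelled and dorsal-labelled than flank-labelled ones. None of 8 cell cycle genes passed in any first-set comparison of 2 sites by edgeR, where 20 to 5032 of 15302 genes tested did. In the second set TOP2A alone passed, higher in volar-labelled and in snout-labelled than in flank-labelled libraries. Of all genes tested 20.9% and 22.6% were higher there.

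Markers of other skin components moved between the sites as well. Skeletal muscle markers (6 of 10 matched) summed to 4.51 to 5633 CPM in first-set snout, 2618 to 3844 CPM in second-set volar-labelled libraries, and at most 12.4 CPM elsewhere. The highest snout value was that of the 7-month pig. Epidermal differentiation markers (7 of 10 matched) summed to 242921 to 275748 CPM in first-set volar, 10762 to 18961 CPM in first-set flank and 458175 to 572882 CPM in second-set flank-labelled libraries. By edgeR 5 of the 7 were higher and 2 lower in first-set volar than flank skin, where 16.9% and 16.0% of all genes tested were. Adipocyte markers (6 of 6 matched) moved in the members' direction. They summed to 44.8 to 82.5 CPM in volar and 249 to 2994 CPM in flank skin of the first set. There 5 of 6 were lower, where 16.0% of all genes tested were, with a median log2 fold change of -4.87. In the second set they summed to 734 to 1855 CPM in dorsal-labelled and 37.9 to 148 CPM in flank-labelled libraries. In the dorsal-labelled ones 5 of 6 were higher, where 25.3% of all genes tested were. Against the same flank-labelled libraries 3 of 6 were higher in volar-labelled and 5 of 6 in snout-labelled ones, where 20.9% and 22.6% of all genes tested were. Sebaceous gland markers (6 of 8 matched) were lower in first-set volar than flank skin for 4 of 6, where 16.0% of all genes tested were. Their median was -4.31 once genes without a volar count were set at their bounds. Their sums overlapped, at 662 to 757 CPM in volar and 458 to 9305 CPM in flank skin. The sebaceous markers were higher in dorsal-labelled than flank-labelled libraries for 6 of 6, where 25.3% of all genes tested were. In volar-labelled and in snout-labelled libraries 3 of 6 were higher than in flank-labelled ones, where 20.9% and 22.6% of all genes tested were. The part of these muscle, epidermal, adipocyte and sebaceous markers in the members' differences was not tested.

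The 8 genes whose profiles came closest to the mean of the members over the 20 libraries, by root mean square difference of centred log2(CPM + 0.5) and with no label used, were KRT74 (0.466), KRT35 (0.555), KRT27 (0.607), S100A3 and KRTAP24-1 (0.647 each), KRT82 (0.673), KRT75 (0.710) and KRT85 (0.812). The median over the 11000 genes compared was 3.47. KRT74 and KRT27 are sheath keratins and KRT75 is the keratin of the companion layer next to it, whereas KRT35, KRT82, KRT85, S100A3 and KRTAP24-1 belong to the hair shaft and its cuticle. Among the members KRT25 (0.449) and VSIG8 (0.651) lay closest to their mean and KRT71 (1.49) farthest. The measure takes in the width of a profile as well as its shape. The SD of the profile over the 20 libraries was 4.72 for KRT71, 2.49 for KRT73 and 3.22 to 3.68 for the other members.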

How the data were processed

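RNA of pig skin was measured by stranded mRNA sequencing in 20 libraries (5 pigs, 4 sites). The authors deposited 1 table of estimated counts per Ensembl gene. The submitters' processing notes name Salmon, without a version. As neither a build nor an annotation release is stated in the sources used here, coordinates are left out. Of the deposited expected counts 42.2% were not whole, and all were rounded before testing. Symbols came from the supplied gene name tables (14821 of 19280 identifiers matched), and 1511 identifiers had no count.

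Groups are the deposited labels. The members and lists were chosen with earlier results of these data known. Because a grouping read from expression may not enter a test, the matched sites of the second set were only described. Each comparison used edgeR 4.0.16 and its quasi-likelihood test (robust fit, TMM scaling, filterByExpr with count minimum 10 and total minimum 15) in R 4.3.3, fitted over all genes within each set on site means, with Benjamini-Hochberg adjusted p under 0.05. Residual degrees of freedom were 8 and 4. The SE printed with an edgeR log2 fold change was back-calculated as its absolute value over the square root of the F statistic. It was not taken from the fit, and is a rough guide where a group has few or no counts. The interaction of site and set was tested with 20 libraries in 1 fit. Folds against a group without a count are bounds that set the mean CPM of the other group against 3 counts over the group. They cover counting error only and not the spread between libraries, and the table carries no molecular identifiers.

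Per the labels each pig gave all 4 sites, so libraries are paired by pig. Same-pig deviations from site means correlated with a median r of 0.184 (first set, 0.051 to 0.407) and 0.307 (second set, 0.134 to 0.477). The reported fits had no pig term, and blocked values stand beside a result where they changed it.

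All 5 members and any gene of the other sheath list could be named. From the further lists up to 4 genes with the smallest adjusted p for any site in the first set were named, and KRT82, S100A3, KRT35, KRT39, KRT85, KRTAP27-1, KRTAP24-1, KRT36, KRT84 and TOP2A beyond that where that rule did not name them, by closeness of profile or after their values were seen. Alternatives were DESeq2 1.42.0, limma-voom (limma 3.58.1), other scalings and filters, 2 sites only, all 20 libraries by label, the pig block, and each library left out. The tests were also run on simulated counts with planted 2- and 4-fold changes. Those do not cover differences as wide as the members' against the lowest group, nor groups with few or no counts. Tables and figures were made with Python 3.11.15.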

Additional observations from a re-analysis of the deposited data

Results flagged for a closer look

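The site differences of all 5 members changed between the sets under the same deposited labels, by edgeR's joint test of the site by set interaction over 20 libraries. The adjusted p was 3.86e-06 for VSIG8, 0.000122 for KRT71, 0.000124 for KRT25, 0.000391 for TCHHL1 and 0.00397 for KRT73. Of all 15735 genes tested 49.3% passed, so a call is common here. For volar minus flank the second set exceeded the first by 13.11 ± 1.72 (log2 ± SE) for KRT25, 18.92 ± 2.52 for KRT71 and 20.27 ± 1.81 for VSIG8. Each of the 5 members was lower in volar-labelled than flank-labelled libraries in 3 of 3 first-set pigs and higher in 2 of 2 second-set pigs. In the second set the flank-labelled libraries were closest to first-set volar skin and the volar-labelled ones to first-set snout.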

How the results depend on the processing

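Of 5 tested members limma-voom called 3 in first-set volar minus flank, 4 in volar minus dorsal, 2 in volar minus snout and 2 in snout minus dorsal, and in the second set 4 in volar minus flank, 5 in volar minus dorsal and 5 in volar minus snout. DESeq2 called 3 in first-set snout minus flank and 5 in snout minus dorsal. Snout minus dorsal also moved to 2 with a 10 CPM filter and to 4 with 2 sites only. The pig block gave 2 calls in snout minus flank, 2 in snout minus dorsal and 4 in second-set volar minus flank, and changed no other member call. Pooling all 20 libraries by label called 0 members in every comparison by edgeR (adjusted p 0.0928 to 0.999; unadjusted p under 0.05 for 4 members in volar minus dorsal, 3 in volar minus snout, 1 in volar minus flank, 1 for any site and 0 elsewhere) and reversed 14 values. In that pooled fit snout minus flank was 1.55 for KRT71, 0.76 for KRT73, 1.16 for KRT25, 0.80 for TCHHL1 and 1.29 for VSIG8. Volar minus flank was -2.41, -3.38, -2.77, -3.57 and -1.65, and snout minus dorsal -0.75, -1.17 and -0.97 for the first 3 and -0.66 for VSIG8.

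Leaving out 1 library at a time kept 5 calls in first-set volar minus flank and volar minus dorsal. It gave 3 to 5 in volar minus snout, 0 to 4 in snout minus flank and 0 to 5 in snout minus dorsal. In the second set it gave 3 to 5 for volar against flank, dorsal or snout and 4 to 5 for any site. TCHHL1 dorsal minus flank ranged from -0.38 to 1.55 in the first set. Second-set snout minus dorsal ranged from -0.53 to 1.12 for KRT71, -0.037 to 1.32 for KRT73 and -0.46 to 0.81 for KRT25.

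Counts over all genes also moved. DESeq2 against edgeR gave 2730 and 1768 (volar minus snout), 3038 and 2024 (snout minus flank), 2045 and 1212 (snout minus dorsal) and 350 and 20 (dorsal minus flank) in the first set. In the second it gave 3017 and 1981 (volar minus dorsal), 2469 and 1551 (volar minus snout) and 272 and 6 (snout minus dorsal). With 2 sites only they were 3207 in place of 5032 (volar minus flank) and 1096 in place of 2024 (snout minus flank) in the first set, and 1284 in place of 1981 (volar minus dorsal) and 0 in place of 6 (snout minus dorsal) in the second. First-set dorsal minus flank gave 48 by limma-voom, 13 with a 10 CPM filter and 32 with the block, second-set snout minus dorsal 34 with the block. Without 1 library, first-set all-gene counts ran from 1 to 42 (dorsal minus flank), 597 to 1370 (snout minus dorsal), 1025 to 2009 (volar minus snout), 1263 to 2136 (snout minus flank) and 2360 to 4051 (volar minus dorsal). Second-set counts ran from 0 to 8 (snout minus dorsal), 464 to 1651 (volar minus snout), 693 to 1903 (volar minus dorsal), 3554 to 6046 (volar minus flank) and 4023 to 6634 (snout minus flank). The shares of all genes printed beside the members move with them, lower calls of second-set volar minus dorsal to 212 without the volar-labelled library of the 6-month pig, against 818 with it. Upper-quartile scaling gave 1593 higher and 1981 lower in first-set volar minus dorsal (by TMM 2142 and 1552), 599 and 530 in first-set snout minus dorsal (765 and 447) and 4163 and 2483 in second-set snout minus flank (3448 and 3111). It gave 5 and 2 in second-set snout minus dorsal (5 and 1). It put the median log2 fold change of all genes at -0.12, -0.05, 0.22 and 0.02 in these 4 and at 0.20 in second-set dorsal minus flank, and turned no member's direction.

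Low counts limit what depth can show in first-set volar skin, where KRT73 and TCHHL1 had no count and VSIG8 had 4 over 3 libraries. Groups of 2 in the second set rest on 4 residual degrees of freedom. Sequence comparisons of the members were not run.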
